A study of Schizosaccharomyces pombe with 10 samples.

Results

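The response to hydrogen peroxide (H2O2) in fission yeast (Schizosaccharomyces pombe) cells labelled HA was measured in 2 of the 10 libraries of a polyA-enriched RNA-seq series, the library labelled HA with H2O2 and the library labelled HA without it. The series set 5 strains, each with H2O2 and without it, side by side. By their labels they differ in sty1, in a tag on the transcription factor Atf1 and in the phosphorylation state of Atf1. Treated HA cells received 1 mM H2O2 for 15 min in MM medium. Untreated HA cells grew in the same medium without H2O2. Both HA libraries carry the label [delta]sty1 HA-Atf1, a sty1 deletion with HA-tagged Atf1 whose phosphorylation status is given as wild-type. The strains used for comparison are STY ([delta]sty1 with wild-type Atf1), 10M ([delta]sty1 HA-Atf1.10M, unphosphorylatable Atf1), 10D ([delta]sty1 HA-Atf1.10D, phosphomimicking Atf1) and WT (genotype wt, wild-type Atf1), each treated and untreated in the same way. The promoter and copy number of the HA-Atf1 construct and the number of clones are not given in the labels. Each side of each strain is 1 library, so the HA response has no replicate check, and a difference between the HA libraries cannot be told apart from a difference between 2 single libraries, which may be technical.

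In S. pombe the mitogen-activated protein kinase Sty1 is activated by many stresses, phosphorylates Atf1 and so switches on the core environmental stress genes, which Atf1 binds together with its partner Pcr1. H2O2 also oxidises the transcription factor Pap1, which then enters the nucleus and induces antioxidant genes, while misfolded proteins activate the heat shock factor Hsf1, which binds repeats of the letters GAA in front of chaperone genes. By its label the HA strain thus lacks Sty1 and carries a tagged Atf1, while pap1 and hsf1 are not named as changed.

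The gene named as deleted was read first in every library. Levels are given in CPM, read counts relative to the total of their library, scaled by library-size factors from the trimmed mean of M-values method (TMM). sty1 (SPAC24B11.06c) was at 125 CPM in the treated and 119 CPM in the untreated library labelled HA, from 1246 and 1119 counts. It was at 9.11 CPM in treated and 8.92 CPM in untreated STY, at 121 and 101.4 CPM in treated and untreated 10M, at 129.9 and 105 CPM in treated and untreated 10D, and at 305 and 267 CPM in treated and untreated WT. The sty1 counts of the libraries labelled HA thus go against their label: they lie above those of STY, which carries the same deletion label, and below those of WT. A noncoding gene that overlaps sty1, SPNCRNA.622, was at 124 CPM in treated and 45.6 CPM in untreated HA, and the strand setting of the counting is not given, so reads of the overlapping pair cannot be told apart. SPNCRNA.622 was at 20.8 and 17.0 CPM in treated and untreated STY. The counts do not say which part of sty1 the reads cover. All statements on HA below are about the libraries labelled HA. The tagged gene, atf1, was at 660.1 CPM in treated and 556 CPM in untreated HA, a log2 ratio of 0.25. It was at 30.4 and 69.3 CPM in treated and untreated STY, and at 643 and 143 CPM in treated and untreated WT. The atf1 level of HA was therefore near that of treated WT before any H2O2 was added.

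The treated HA library held 10745498 counts and the untreated one 9178795, within a range of 9178795 to 26503471 over the 10 libraries, and the TMM factors were 0.925 and 1.02. A gene with 3 counts stands at 0.302 CPM in treated and 0.319 CPM in untreated HA. The 10 genes with the most counts held 9.64% of the counts in treated HA and 10.8% in untreated HA.

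Of 7017 genes in the table, 4985 reached a mean of 10 CPM over the 10 libraries and are called measured. A gene can thus be measured through other strains while it is low in HA, as gut2 and cta3 below are. A gene is called apart here when treated and untreated HA differed at least 2-fold and the exact 95% binomial counting interval of the ratio excluded 1. That interval covers counting error only, since PCR copies are not independent molecules, and it says nothing of the spread between cultures. By this rule 202 genes (4.05%) were higher and 377 genes (7.56%) were lower in treated than in untreated HA, and the other 4406 were not apart. The genes at the 2 ends differed in size: 66 of the higher genes and 42 of the lower ones were at least 4-fold apart, and 23 higher genes but only 2 lower genes were at least 8-fold apart. The median log2 ratio of treated to untreated HA was −0.09, with quartiles of −0.48 and 0.26, and the 5th and 95th percentiles were at −1.17 and 0.88. Higher genes made up 34.9% of the genes apart, and 23.5% with scaling to total counts, which lowers the median by 0.15. Each library is a bulk culture without a spike-in given in the labels, so fewer cells holding a transcript and less of it per cell cannot be told apart, and every level is a share of its library. Genes on either strand that overlap in the ASM294v3 annotation may also share reads, and their values are uncertain to that extent. Among the genes with values below this applies to oca2, pof15, SPCC594.03, SPAPB24D3.07c, rds1, ssa1, srx1, gut2, ntp1, tps1, tps3, dak2, tgp1, amt3, agn1, cdc18, slp1, atd1, chs2, sul1, cip2, cta3, rps1401 and SPBP23A10.11c, among others.

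**Figure D1:**
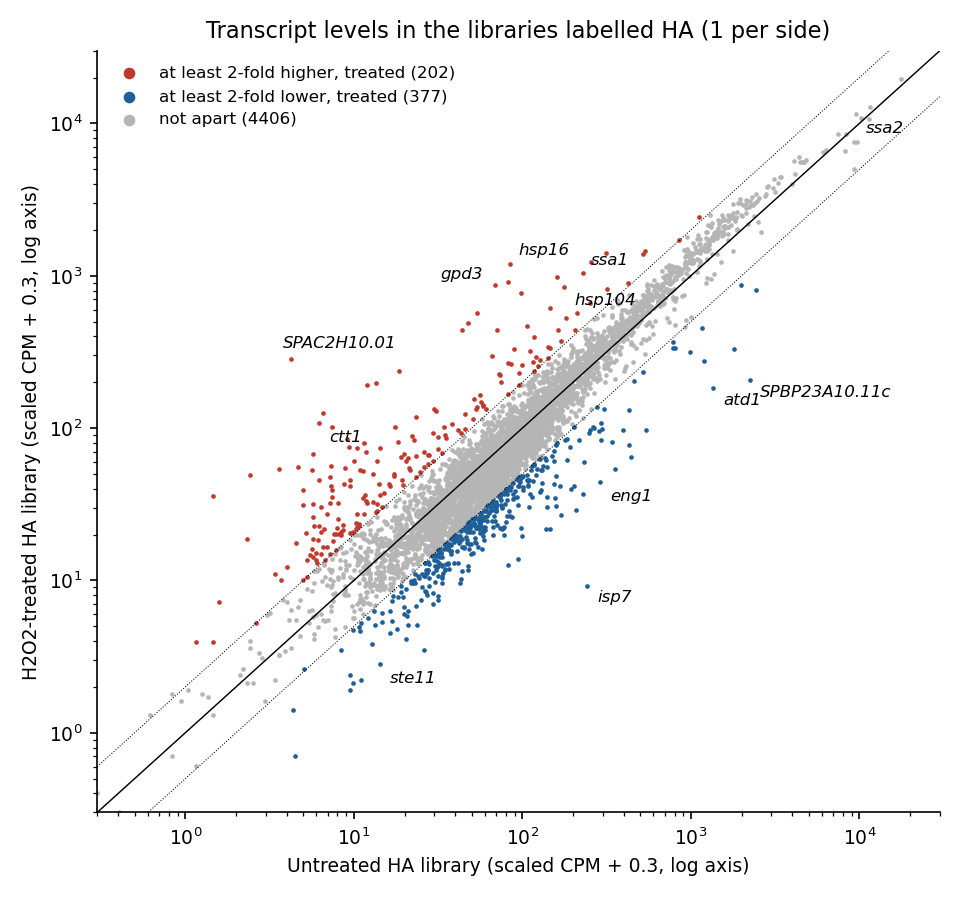
Level of each measured gene in treated HA (vertical axis) against untreated HA (horizontal axis), both in CPM plus 0.3 on log axes, with dotted lines at 2-fold. The 202 higher genes (red) reach farther from the diagonal than the 377 lower genes (blue), and 4406 genes (grey) were not apart.

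Heat shock and chaperone genes had the most members higher in treated HA by number, while the smaller trehalose and glycerol list had the larger share. Of 29 heat shock and chaperone genes, 9 (31.0%) were higher and 0 were lower, against 4.05% and 7.56% of all measured genes. A log2 ratio above 0 was found in 27 of the 29, against 2135 of all 4985 measured genes. The median log2 ratio of the 29 was 0.68, which lies 0.77 above that of all genes. The members of largest ratio fall into the small heat shock proteins, which hold unfolded proteins in solution, and the disaggregase and Hsp70 machinery, which recovers and refolds them.

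**Figure D2:**
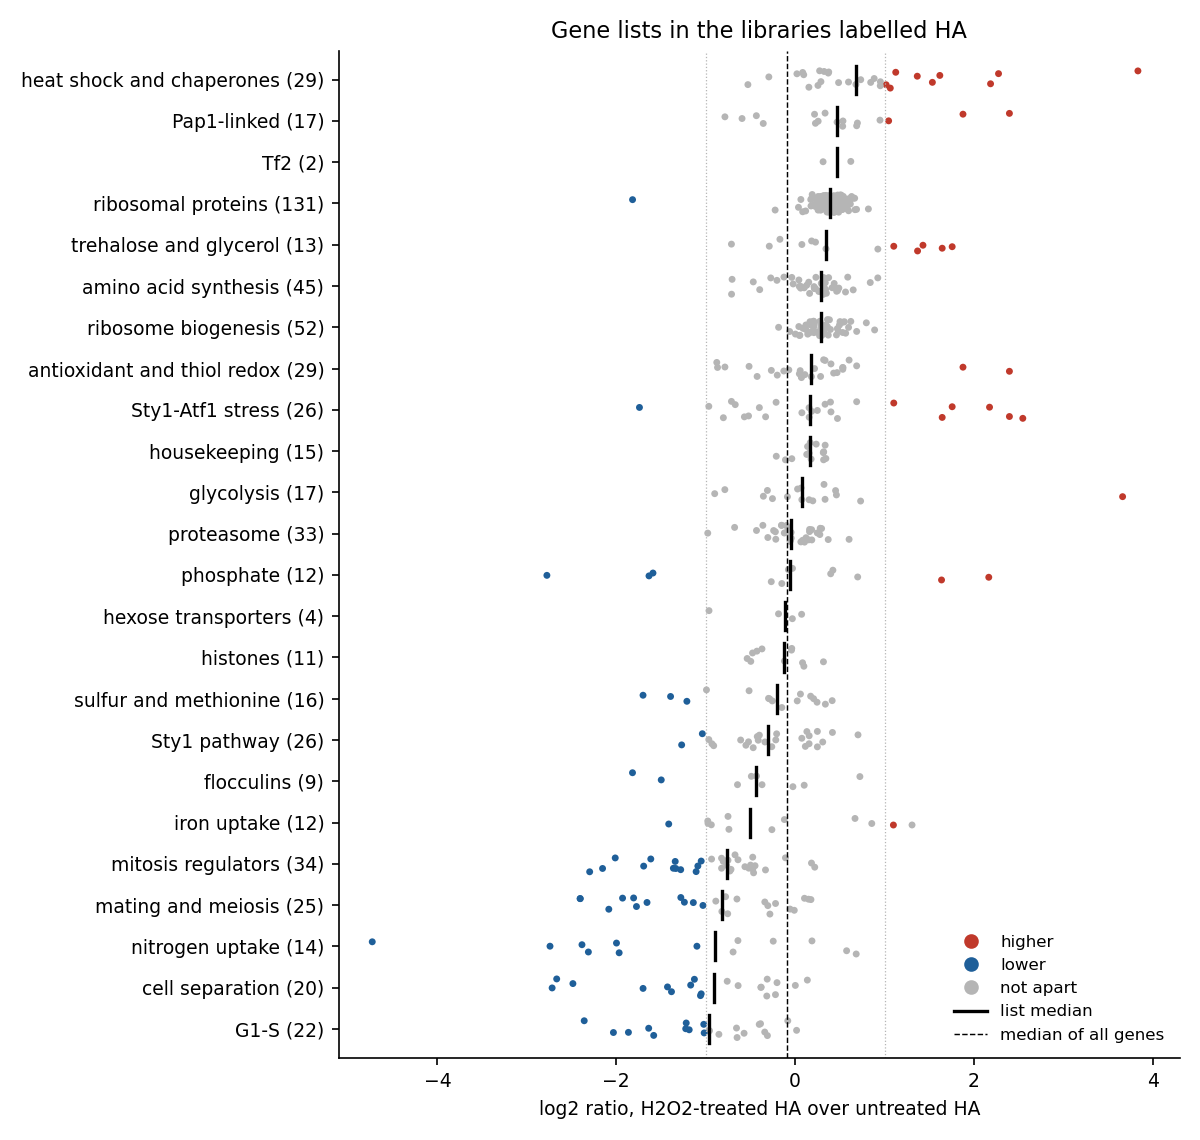
Log2 ratio of treated to untreated HA for each measured member of the 24 gene lists, with the list median as a bar and the median of all genes (−0.09) as a dashed line. The heat shock list (median 0.68) lies to the right and the cell separation (−0.90) and G1-S lists (−0.96) to the left.

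hsp16, a small heat shock protein, was at 1200.0 CPM in treated HA and 84.1 CPM in untreated HA, from 11931 and 791 counts, a 14.2-fold difference (log2 ratio 3.83, 95% counting interval 3.73 to 3.94). hsp104, which pulls proteins out of aggregates, was at 849 CPM in treated and 175 CPM in untreated HA (log2 ratio 2.27, interval 2.20 to 2.35). ssa1, a cytosolic Hsp70, was at 1038 CPM in treated and 228 CPM in untreated HA (log2 ratio 2.18, interval 2.12 to 2.25). Its close relative ssa2 was at 11509 CPM in treated and 9519.7 CPM in untreated HA, and its log2 ratio of 0.27 was not apart. Of the ssa1 coding sequence 7 of 1886 windows of 50 bases (0.371%) occur unchanged in ssa2. The other higher members were hsp20 (263 CPM in treated, 85.7 CPM in untreated HA), the Hsp40 co-chaperone psi1 (525 and 181 CPM), the mitochondrial disaggregase hsp78 (818 and 317 CPM), the cyclophilin wis2 (2439.5 and 1119 CPM), the Hsp90 activator aha1 (889 and 425 CPM) and the Hsp40 mas5 (1723 and 851 CPM). sti1, which links Hsp70 to Hsp90, lay just under 2-fold at 2523 CPM in treated and 1303 CPM in untreated HA. hsp90 was at 6491 CPM in treated and 6123 CPM in untreated HA, and the mitochondrial chaperonin mcp60 was at 2199 and 2169 CPM. The lowest member was the endoplasmic reticulum Hsp40 scj1, at 83.3 CPM in treated and 120.2 CPM in untreated HA. The gene of the factor itself, hsf1, was at 184 CPM in treated and 172 CPM in untreated HA, with a log2 ratio of 0.10. From the top, the order of the ratios was hsp16, hsp104, ssa1, hsp20 and psi1, while ssa2, hsp90 and mcp60 stood near a ratio of 1. With scaling to total counts 6 of the 9 remained at least 2-fold apart, and wis2, aha1 and mas5 did not.

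**Figure D3:**
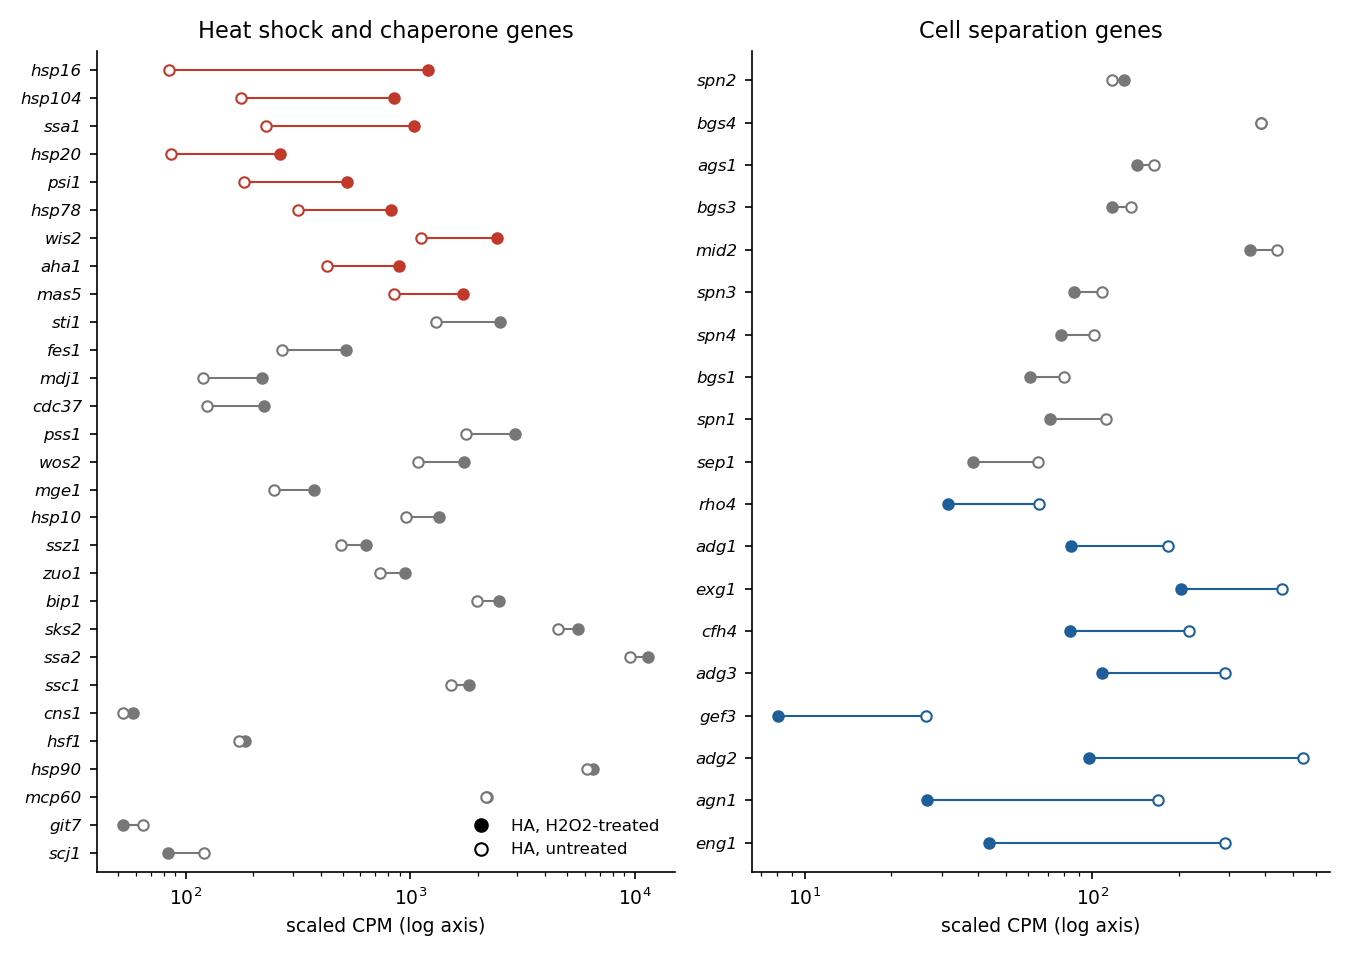
Levels in CPM (log axis) of the 29 heat shock and chaperone genes and of 19 of the 20 cell separation genes in treated HA (filled) and untreated HA (open). hsp16 lies furthest apart among the heat shock genes and eng1 and agn1 among the cell separation genes, in the opposite direction.

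The stretches below are the 180 bases before the annotated transcript start of 4 chaperone genes, shown because the same motif stands in front of members that were apart and of one that was not. Sequences are from RefSeq, build ASM294v3, 5′ to 3′ on the strand of the gene, and capitals mark a heat shock element, searched as GAANNTTC and TTCNNGAA, which overlap each other in part, on both strands. They lie at chrII:2660993-2661172 (minus strand) for hsp16, chrI:2297965-2298144 (minus) for ssa1, chrIII:2195535-2195714 (minus) for psi1 and chrIII:2056863-2057042 (plus) for ssa2.
hsp16: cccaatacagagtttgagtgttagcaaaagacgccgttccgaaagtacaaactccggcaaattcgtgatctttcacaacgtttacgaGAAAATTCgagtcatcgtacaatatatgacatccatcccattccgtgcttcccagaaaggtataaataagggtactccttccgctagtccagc
ssa1: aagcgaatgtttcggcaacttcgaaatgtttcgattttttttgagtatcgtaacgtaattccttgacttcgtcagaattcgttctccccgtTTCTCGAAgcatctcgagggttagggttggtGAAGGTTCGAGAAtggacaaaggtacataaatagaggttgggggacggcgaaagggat
psi1: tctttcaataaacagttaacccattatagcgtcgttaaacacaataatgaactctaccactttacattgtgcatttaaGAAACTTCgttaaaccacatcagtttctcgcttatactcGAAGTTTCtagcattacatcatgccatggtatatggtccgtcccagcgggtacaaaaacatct
ssa2: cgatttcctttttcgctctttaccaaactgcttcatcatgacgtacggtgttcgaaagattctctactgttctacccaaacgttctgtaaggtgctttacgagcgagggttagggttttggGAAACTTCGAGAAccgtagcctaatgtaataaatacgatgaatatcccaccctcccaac
The 180 bases hold 1 match for hsp16, 93 bases before the start, 3 for ssa1, nearest at 53, 2 for psi1, nearest at 63, and 2 for ssa2, nearest at 54. Over windows of 250 bases before to 50 after each start, 18 of the 29 heat shock genes held a match (62.1%), against 19.8% of all 5103 windows. Of the members that were higher in treated HA 7 of 9 held one, and of those not apart 11 of 20 did. Among all protein-coding genes apart in HA, 34 of 108 higher genes (31.5%) and 58 of 373 lower genes (15.5%) held one. A match is a description of the letters in this window and does not show binding.

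Of the core stress genes that Sty1 and Atf1 induce in the wild type, 6 of 26 measured members (23.1%) were higher and 1 (3.85%) was lower in treated HA. Of all measured genes 4.05% were higher and 7.56% lower. The median log2 ratio of the list was 0.17, which is 0.26 above that of all genes. In WT the same list had a median log2 ratio of 2.45 with 22 of 26 members higher, where 9.43% of all genes were higher. rds1, a stress-responsive gene, was at 102 CPM in treated HA and 17.3 CPM in untreated HA (log2 ratio 2.55, interval 2.32 to 2.80). ctt1, the catalase that breaks down H2O2, was at 73.9 CPM in treated HA and 13.9 CPM in untreated HA, from 735 and 131 counts (log2 ratio 2.40, interval 2.14 to 2.69). Its log2 ratio was 7.00 in WT, 3.78 in 10D, 2.99 in 10M and 1.24 in STY, so the HA value exceeds only that of STY. rtc3 was at 61.0 CPM in treated and 13.4 CPM in untreated HA. The neutral trehalase ntp1 was at 225 CPM in treated and 72.0 CPM in untreated HA. The glycerol-3-phosphate dehydrogenase gut2, at 10.8 and 3.08 CPM, and the trehalose-6-phosphate synthase tps1, at 439.5 and 205 CPM, complete the higher members. tps1 fell just short of 2-fold (log2 ratio 0.96) with scaling to total counts. gut2 passes the minimum of 10 CPM through other strains, such as treated WT at 445 CPM. In untreated WT rds1 was at 583, ctt1 at 124, rtc3 at 127, gut2 at 37.6 and tps1 at 457 CPM, all above treated HA. ntp1 was at 155 CPM in untreated WT, below treated HA. Other classical targets were not apart: gpd1, which makes glycerol-3-phosphate, was at 362 CPM in treated and 343 CPM in untreated HA. The phosphatase pyp2, a feedback inhibitor of Sty1, was at 9.96 CPM in treated and 13.2 CPM in untreated HA, and hsp9 was at 9.56 and 7.23 CPM. The log2 ratios of these last 3 genes in WT were 2.29, 4.27 and 2.42. The 1 lower member was cta3, a cation-pump ATPase, with 11 counts in treated HA and 38 in untreated HA (1.11 and 4.04 CPM). Its log2 ratio in WT was 4.38, and it passes the minimum through other strains, with 303 CPM in treated WT.

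The CRE core TGACGT, the letters that Atf1 and its relatives bind, is shown in 2 Sty1-Atf1 genes, ctt1, which was higher in treated HA, and gpd1, which was not apart. The 180 bases before the start lie at chrIII:58834-59013 (minus strand) for ctt1 and chrII:4035386-4035565 (plus strand) for gpd1, again from RefSeq build ASM294v3, with the core in capitals.
ctt1: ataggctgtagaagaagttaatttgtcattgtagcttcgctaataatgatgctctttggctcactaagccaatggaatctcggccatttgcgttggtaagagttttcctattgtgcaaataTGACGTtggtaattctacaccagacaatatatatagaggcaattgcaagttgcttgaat
gpd1: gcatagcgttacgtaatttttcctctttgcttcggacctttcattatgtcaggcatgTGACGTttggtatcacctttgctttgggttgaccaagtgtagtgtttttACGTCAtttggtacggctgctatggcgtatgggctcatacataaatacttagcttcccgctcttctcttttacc
ctt1 has 1 core, 59 bases before its start, and gpd1 has 2, the nearest 74 bases before its start. The core occurred in 9 of the 26 measured list members and in 5.92% of all 5103 windows. Among the list members that held it, ctt1, ntp1, rds1 and gut2 were higher in treated HA, while gpd1, atf1, srk1, ish1 and ptc1 were not apart. Of the 108 protein-coding genes higher in treated HA, 13 held the core (12.04%).

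Pap1-linked genes had a median log2 ratio of 0.47 in HA, with 3 of 17 measured members higher (17.6%, against 4.05% of all genes) and 0 lower. The higher ones were ctt1, the sulfiredoxin srx1 and osr1. srx1, which repairs over-oxidised peroxiredoxin, was at 82.8 CPM in treated HA and 22.4 CPM in untreated HA (log2 ratio 1.88, interval 1.66 to 2.11). Its log2 ratio was 6.84 in WT, 6.58 in 10D, 3.05 in 10M and 0.56 in STY. osr1 was at 47.8 CPM in treated and 23.1 CPM in untreated HA, and its log2 ratio of 1.05 became 0.90 with scaling to total counts. SPCC663.08c was just under 2-fold, at 191 CPM in treated and 98.9 CPM in untreated HA. The thioredoxin reductase trr1 was at 679.9 CPM in treated and 469 CPM in untreated HA and the peroxiredoxin tpx1 at 2346 and 1695 CPM, neither apart. Their log2 ratios of 0.53 and 0.47 in HA stand beside 4.46 and 3.37 in WT. The wider antioxidant and thiol redox list counted 2 of 29 members higher, ctt1 and srx1, with a median of 0.18, and that share of 6.90% is near the 4.05% of all genes. At the low end of that list stood pmp20, annotated as a thioredoxin-related chaperone, at 514 CPM in treated and 938 CPM in untreated HA. The glutathione peroxidase gpx1 was at 106 CPM in treated and 80.0 CPM in untreated HA. pap1 itself was at 348 CPM in treated and 281 CPM in untreated HA. A Pap1 site, searched as TTAGTAA and TTACGTAA on both strands, occurred in 7 of 17 of the Pap1-linked genes and 12.4% of all windows.

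Trehalose and glycerol metabolism had 5 of 13 measured members higher in treated HA (38.5%, against 4.05% of all genes) and 0 lower, with a median log2 ratio of 0.34. Besides ntp1, gut2 and tps1, which also sit in the Sty1-Atf1 list, they were tps3, a subunit of the trehalose synthase complex, at 565 CPM in treated and 209.9 CPM in untreated HA, and the dihydroxyacetone kinase dak2, at 14.8 and 5.64 CPM. Genes of both the synthesis and the breakdown of trehalose were thus among the higher ones. In glycolysis 1 of 17 measured members was higher (5.88%), a share near that of all genes. That gene, gpd3, encodes a glyceraldehyde-3-phosphate dehydrogenase and was at 867 CPM in treated HA and 68.4 CPM in untreated HA, 12.7-fold apart (log2 ratio 3.66, interval 3.55 to 3.78). Its paralog tdh1 was at 10705 CPM in treated and 11364 CPM in untreated HA. The paralogs share 234 of 959 windows of 50 bases (24.4% of gpd3), so the split of reads between them is uncertain, though tdh1 did not move with gpd3. None of the 4 measured hexose transporters was apart.

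The protein-coding genes with the highest ratios in HA lay mostly outside these lists. SPAC2H10.01, annotated as a transcription factor, was at 286 CPM in treated HA and 3.93 CPM in untreated HA, from 2841 and 37 counts, which is the highest ratio of all measured genes (70.1-fold, log2 ratio 6.13, interval 5.72 to 6.69). oca2, a serine/threonine kinase, was at 192 CPM in treated and 11.7 CPM in untreated HA. The F-box protein gene pof15, whose class of proteins selects targets for degradation, was at 237 CPM in treated and 18.2 CPM in untreated HA. SPAC27D7.09c, of the But2 family, was at 905 CPM in treated and 82.4 CPM in untreated HA, and SPBC409.08, annotated as a spermine family transporter, at 775 and 97.9 CPM. SPCC794.04c, a membrane transporter, was at 53.2 CPM in treated and 3.3 CPM in untreated HA. gcd1, annotated as a glucose-6-phosphate dehydrogenase, was at 54.3 CPM in treated and 8.61 CPM in untreated HA. Genes without a described product also stand at this end, such as SPCC594.03 at 125 CPM in treated and 6.27 CPM in untreated HA, SPBC1105.13c at 102 and 7.12 CPM, and SPAPB24D3.07c at 443 and 43.7 CPM.

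Genes of cell division were lower in treated HA in 3 lists, cell separation, the G1-S transition and mitosis. Cell separation genes, which split the daughter cells after division, had 10 of 20 members lower and 0 higher, with a median log2 ratio of −0.90, where 7.56% of all genes were lower. eng1, the endoglucanase that dissolves the septum between daughter cells, was at 43.9 CPM in treated HA and 289 CPM in untreated HA, from 436 and 2719 counts (log2 ratio −2.72, interval −2.87 to −2.57). agn1, the glucanase that erodes the surrounding cell wall, was at 26.7 CPM in treated and 169.9 CPM in untreated HA (log2 ratio −2.67, interval −2.87 to −2.48). adg2 was at 97.2 CPM in treated and 544 CPM in untreated HA. The lower members adg1, adg3, cfh4, gef3, rho4 and exg1 had log2 ratios between −1.70 (gef3) and −1.06 (rho4). The glucan synthase bgs4, which builds the septum, was at 388 CPM in treated and 387 CPM in untreated HA.

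Genes of the G1-S transition, which are driven by the MBF factor and prepare DNA replication, had 10 of 22 members lower and 0 higher. That is 45.5% lower, against 7.56% of all genes, and the median log2 ratio was −0.96. cdc18, which licenses replication origins, was at 19.2 CPM in treated and 99.1 CPM in untreated HA (log2 ratio −2.36, interval −2.60 to −2.14). tos4 was at 97.2 CPM in treated and 398 CPM in untreated HA, the S-phase cyclin gene cig2 at 30.1 and 109.8 CPM, and the large ribonucleotide reductase subunit gene cdc22 at 334 and 779 CPM. The small subunit gene suc22 was at 453 CPM in treated and 447 CPM in untreated HA. The MBF site ACGCGT was present in 9 of the 22 windows and 3.25% of all. Among regulators of mitosis 12 of 34 were lower (35.3%, against 7.56% of all genes) and 0 higher, with a median of −0.76. They included slp1, the activator of the anaphase-promoting complex, at 39.6 CPM in treated and 195 CPM in untreated HA, and the Cdc2-activating phosphatase cdc25, at 9.35 and 42.1 CPM. The kinase wee1, which opposes cdc25, was also lower, at 22.8 CPM in treated and 70.2 CPM in untreated HA. cdc2 itself was at 102 CPM in treated and 110.1 CPM in untreated HA. None of the 11 histone genes measured was apart, and their median log2 ratio was −0.12. Both the phosphatase and the kinase that set the mitotic switch were thus lower, while cdc2, on which they act, was not apart.

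Nitrogen uptake genes, and the mating and meiosis genes that nitrogen starvation induces, were the other lists with many lower members. In nitrogen uptake 7 of 14 members were lower and 1 was higher, with a median log2 ratio of −0.90. isp7, an oxygenase that takes part in amino acid uptake control, was at 8.95 CPM in treated HA and 241 CPM in untreated HA, from 89 and 2266 counts. That is 26.5-fold lower and the lowest ratio of all measured genes (log2 ratio −4.73, interval −5.07 to −4.44). Of the 3 ammonium transporter genes, amt1 was at 30.4 CPM in treated and 159 CPM in untreated HA, amt2 at 258 and 173 CPM and amt3 at 17.2 and 4.25 CPM, so amt1 was lower, amt2 was not apart and amt3 was higher. The amino acid permease genes isp5, at 21.6 CPM in treated and 145 CPM in untreated HA, and put4, at 59.5 and 233 CPM, were lower as well. In mating and meiosis 11 of 25 measured members were lower (44.0%, against 7.56% of all genes) and 0 higher, with a median of −0.82. ste11, the master transcription factor of sexual differentiation, was at 2.51 CPM in treated and 13.9 CPM in untreated HA, from 25 and 131 counts. mei2, which starts meiosis, was at 1.61 CPM in treated and 9.14 CPM in untreated HA, from 16 and 86 counts. Both genes rest on few counts, and their intervals are accordingly wide, from −3.15 to −1.84 for ste11 and from −3.38 to −1.73 for mei2.

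Phosphate genes went in both directions, with 2 of 12 higher (16.7%, against 4.05% of all genes) and 3 lower (25.0%, against 7.56%). The phosphate transporter genes pho84 and pho842 were lower, at 317 and 64.7 CPM in treated HA against 983 and 444 CPM in untreated HA, while pho841 was higher at 133 CPM in treated and 29.6 CPM in untreated HA. The glycerophosphodiester transporter gene tgp1 was at 34.7 CPM in treated and 11.1 CPM in untreated HA. Sulfur and methionine genes had 3 of 16 lower (18.8%, against 7.56% of all genes). They included the sulfate transporter genes sul1, at 41.1 CPM in treated and 108 CPM in untreated HA, and sul2, at 35.1 and 114 CPM. In iron uptake 1 of 12 was lower and 1 was higher (8.33% each, against 7.56% and 4.05% of all genes). The lower one was the siderophore transporter gene str1, at 100.3 CPM in treated and 267 CPM in untreated HA. The 1 higher iron gene was the siderophore synthase sib1, at 58.2 CPM in treated and 27.1 CPM in untreated HA, which was not apart with scaling to total counts (log2 ratio 0.95). Among 9 measured flocculins, which are cell surface adhesins, pfl8 and pfl5 were lower (22.2%, against 7.56% of all genes). Of 26 measured Sty1 pathway genes 2 (7.69%) were lower, close to the 7.56% of all genes. They were the kinase cmk2, at 31.8 CPM in treated and 65.4 CPM in untreated HA, and the RNA-binding protein cip2, at 53.0 and 128 CPM, and cmk2 was not apart with the size factors of DESeq2 (log2 ratio −0.98). With scaling to total counts 5 Sty1 pathway genes and 4 iron genes were lower. Outside the lists, SPBP23A10.11c, annotated as a beta-glucanase, was at 207 CPM in treated and 2238 CPM in untreated HA, chs2, named as a chitin synthase homolog, at 3.22 and 25.9 CPM, the aldehyde dehydrogenase atd1 at 182 and 1353 CPM, and the kinase ppk1 at 12.3 and 82.1 CPM. Transporter genes stand at this end too: SPAC24H6.13, annotated as a calcium transporter, was at 28.9 CPM in treated and 208 CPM in untreated HA, SPCPB1C11.03, annotated as a cysteine transporter, at 53.7 and 357 CPM, and SPAC1399.01c, annotated as a transporter, at 13.6 and 93.4 CPM.

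The genes of protein synthesis had small ratios of the same sign and hardly any were apart. Of 131 ribosomal protein genes 129 had a log2 ratio above 0, against 2135 of all 4985 measured genes. The ribosomal protein genes had a median of 0.39, yet 0 were higher by the 2-fold rule and 1 was lower. That gene was rps1401, at 82.9 CPM in treated and 293 CPM in untreated HA, while its paralog rps1402 was at 1451 and 968 CPM. The pair shares 52 of 371 windows of 50 bases (14.0% of rps1401), so their split of reads is uncertain. In ribosome biogenesis 50 of 52 genes had a ratio above 0, with a median of 0.29 and 0 apart. Its highest ratio was that of rpa12, a subunit of RNA polymerase I, at 139.5 CPM in treated and 75.3 CPM in untreated HA. Amino acid synthesis had the same median, 0.29, and 0 of 45 apart, with the leucine synthesis gene leu3 highest at 1792 CPM in treated and 944 CPM in untreated HA. The 33 proteasome genes had a median of −0.05 and the 15 housekeeping genes one of 0.17, with 0 apart in either list, and the 2 measured Tf2 retrotransposon genes were not apart. With scaling to total counts the median of the ribosomal protein genes was 0.24, that of ribosome biogenesis 0.14 and that of the housekeeping genes 0.02, all shifted with the 0.15 given above for all genes.

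Noncoding RNAs were a large share of the higher genes. They took 1.56% of the counts in treated HA (95% binomial interval by the Wilson method 1.56 to 1.57%) and 0.936% in untreated HA (0.930 to 0.942%). Of 288 measured noncoding genes 89 (30.9%) were higher and 2 were lower, with a median log2 ratio of 0.51, against 108 higher and 373 lower of 4678 protein-coding genes, with a median of −0.12. Nearly all of the noncoding genes were long noncoding RNAs, with 84 of 277 higher and 1 lower, and of 5 measured snoRNAs 3 were higher and 1 was lower. Many of them overlap coding genes: 62 of the 87 higher noncoding genes that could be placed on the annotation did, as did 221 of 282 of all measured ones. Since the strand setting is not given, reads of such a gene and of its partner cannot be told apart, and antisense RNA is not shown by these counts. A large higher share was not particular to HA. Of the 288 noncoding genes 77 were higher with H2O2 in 10M, 79 in 10D, 74 in WT and 32 in STY. In the same order 0, 26, 27 and 4 were lower, and the median log2 ratios were 0.51, 0.39, 0.33 and 0.17. Of all measured genes 2.97%, 7.38%, 9.43% and 1.14% were higher in these strains.

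**Figure D4:**
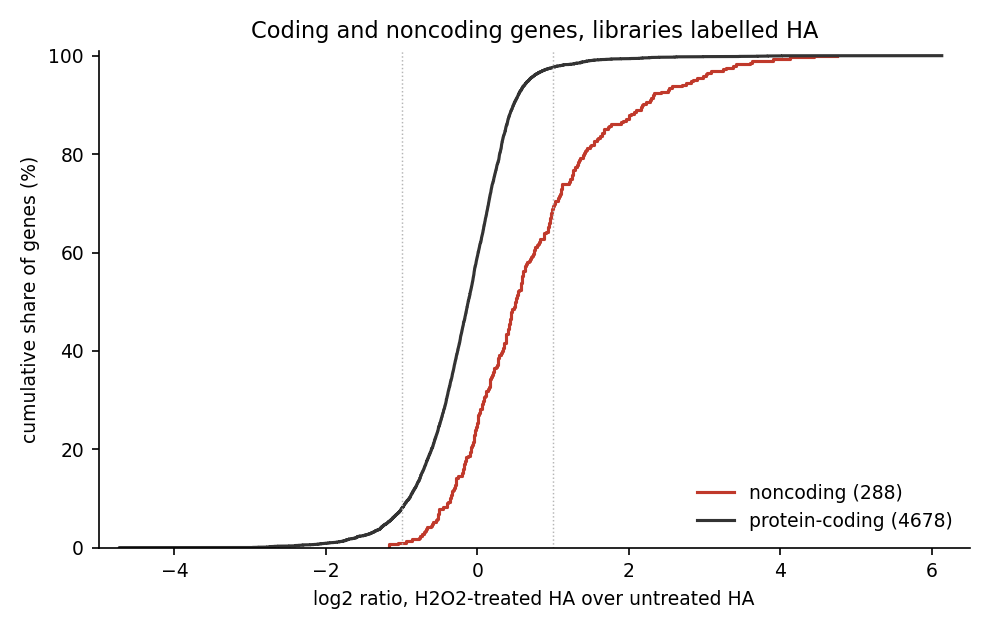
Cumulative share of measured genes (vertical axis) up to a given log2 ratio of treated to untreated HA (horizontal axis), for 288 noncoding and 4678 protein-coding genes. The noncoding curve lies to the right, with a median of 0.51 against −0.12.

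The noncoding gene of highest ratio, SPNCRNA.846, overlaps the cyclin gene cig2 and was at 35.3 CPM in treated HA and 1.17 CPM in untreated HA, from 351 and 11 counts, while cig2 was lower. SPNCRNA.1688 was at 49.2 CPM in treated and 2.13 CPM in untreated HA. SPNCRNA.1673, which overlaps abp2 and other noncoding genes, was at 107 CPM in treated and 5.95 CPM in untreated HA. SPNCRNA.1653 was at 198 CPM in treated and 13.2 CPM in untreated HA. It overlaps both the Hsp70 nucleotide exchange factor gene fes1, at 518 CPM in treated and 268 CPM in untreated HA, and cwf28, which was lower at 11.5 and 47.2 CPM. Another overlapping gene was SPNCRNA.1202, at 55.5 CPM in treated and 4.36 CPM in untreated HA, which lies over the sulfite reductase gene met10. In the pairs of SPNCRNA.846 with cig2 and SPNCRNA.1653 with cwf28 the noncoding and the coding gene went in opposite directions. The 2 lower noncoding genes were SPNCRNA.716, at 15.7 CPM in treated and 35.4 CPM in untreated HA, and the snoRNA snoU14, at 8.95 and 18.7 CPM, and snoU14 was just inside 2-fold with the size factors of DESeq2.

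The closest labelled counterpart without the tagged Atf1 is STY, and the HA and STY ratios share no library. The 2 strains differ in more than the tag. Untreated HA and STY were at 119 and 8.92 CPM for sty1, 556 and 69.3 CPM for atf1 and 4464 and 757 CPM for leu1. leu1 was also at 2767 CPM in untreated 10M, 3841 CPM in untreated 10D and 540 CPM in untreated WT. Whether these levels bear on the differences below was not tested. In STY 57 genes (1.14%) were higher and 336 (6.74%) lower with H2O2, so the lower sets of HA and STY are alike in size and the higher sets are not. Of the genes higher in treated HA 55 were also higher in treated STY, which is 27.2% of the HA genes and 96.5% of the STY genes. Of the lower genes 198 were shared, which is 52.5% of the HA genes and 58.9% of the STY genes. The HA log2 ratio exceeded the STY one by at least 1, with a counting interval that excluded 0, in 173 genes (3.47%), and fell short of it by as much in 35 genes (0.702%). The largest differences belonged to SPAC2H10.01 (3.12, interval 2.44 to 3.81), SPCC794.04c (2.92), SPNCRNA.1063 (2.75), SPNCRNA.1023 (2.66), pof15 (2.58), SPNCRNA.846 (2.55), gcd1 (2.51, interval 2.07 to 2.95) and rds1 (2.44). At the other end stood SPBPB2B2.06c (−1.92), atd1 (−1.59), cwf28 (−1.56), isp7 (−1.55), SPAC4H3.04c (−1.54), hpz2 (−1.50), pdc201 (−1.49) and pho842 (−1.45). Some of these rest on few counts. SPBPB2B2.06c was at 11.7 and 11.8 CPM in treated and untreated HA, and at 3.15 and 0.735 CPM in STY (interval −3.14 to −0.70). hpz2 had 23 and 45 counts in treated and untreated HA (interval −2.65 to −0.36), and pdc201 had 39 and 70.

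In the heat shock list 23 of 29 members had a higher ratio in HA than in STY, with a median difference of 0.43, against 2214 of 4985 and −0.04 over all measured genes. The HA minus STY difference was at least 1 for 3 members, 2.09 for hsp16 (interval 1.95 to 2.22), 1.43 for ssa1 (1.33 to 1.53) and 1.22 for hsp78 (1.11 to 1.32). It was smaller for hsp104 (0.89), hsp20 (0.83) and psi1 (0.74), which also rank among the members of highest ratio in HA. hsp16 was at 1200.0 CPM in treated HA against 486 CPM in treated STY, and at 84.1 CPM in untreated HA against 145 CPM in untreated STY, so that both the treated and the untreated level add to the difference. The catalase gene ctt1 had a difference of 1.16 (interval 0.72 to 1.59), whereas that of tpx1 was −0.00. Cell separation genes were 10 lower of 20 in both strains, and exg1 had a log2 ratio of −1.17 in HA and −2.14 in STY, a difference of 0.98 (interval 0.85 to 1.10). G1-S genes were 10 lower of 22 in HA and 11 in STY, and mitosis regulators 12 of 34 in HA and 17 in STY, by list medians of −0.96 and −0.97 for G1-S and −0.76 and −0.93 for mitosis.

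The genes apart in HA were shared to different degrees with 10M, 10D and WT, which have no library in common with HA. In 10M 2.97% of genes were higher and 3.31% lower with H2O2, in 10D 7.38% and 7.24%, and in WT 9.43% and 6.48%. Of the genes higher in treated HA 111 were higher in 10M, which is 55.0% of the HA genes and 75.0% of those of 10M. In 10D the shared number was 63 (31.2% of the HA genes and 17.1% of those of 10D), with 40 HA genes apart in the opposite direction. In WT it was 82 (40.6% and 17.4%), with 18 in the opposite direction. Of the genes lower in treated HA 142 were lower in 10M (37.7% of the HA genes and 86.1% of those of 10M). In 10D 67 were lower (17.8% and 18.6%), with 21 in the opposite direction, and in WT 88 (23.3% and 27.2%), with 25 in the opposite direction. Across the 4985 measured genes the HA log2 ratio correlated with that of 10M at a Pearson r of 0.87, with STY at 0.76, with WT at 0.26 and with 10D at 0.18, as a description over genes, which are not independent, with the 2 HA libraries shared by all 4 values. The chaperone genes had list medians of opposite sign in these strains. Their median log2 ratio was 0.68 in HA, 0.35 in STY and 0.54 in 10M, but −1.27 in 10D, with 16 of 29 lower, and −0.79 in WT, with 12 of 29 lower. hsp16 had a log2 ratio of 3.83 in HA, 1.75 in STY, 2.76 in 10M, −4.02 in 10D and −0.79 in WT. For the Pap1-linked genes 10D and WT had the higher medians, with a median of 0.47 in HA, 0.36 in STY and 0.75 in 10M against 3.09 in 10D and 3.48 in WT, where 14 of 17 were higher in each.

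**Figure D5:**
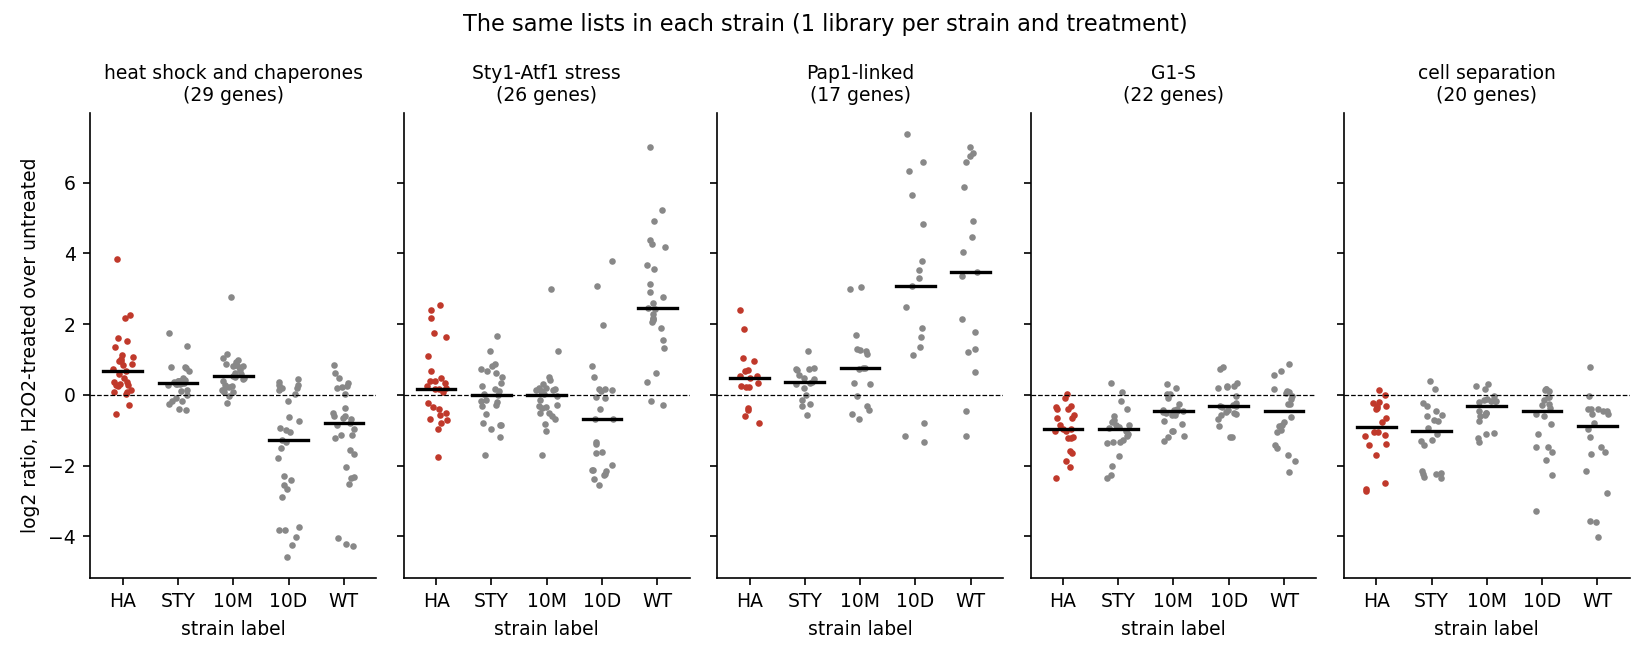
Log2 ratio of treated to untreated cells for the members of 5 gene lists in HA, STY, 10M, 10D and WT, with list medians as bars. For heat shock genes HA has the highest median (0.68) and 10D the lowest (−1.27), and for Sty1-Atf1 genes the HA median (0.17) lies far under that of WT (2.45).

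A single test of the HA response was possible, against the responses of the other 4 strains, with the spread between those 4 as its error. In edgeR's quasi-likelihood test with Benjamini-Hochberg adjustment 0 of 6176 genes (0.0%) passed an adjusted p of 0.05 for a treatment effect in HA that differs from the others. At an unadjusted p under 0.05 there were 62 of 6176, and DESeq2 called 0 of 6659, with 97 at an unadjusted p under 0.05. With 4 strains that differ among themselves as the error, and 3 residual degrees of freedom, a count of 0 does not show that the HA response was like theirs. The differences between HA and single strains given above therefore rest on counting error alone.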

How the data were processed

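PolyA-enriched RNA was sequenced from 10 libraries, and the deposited table holds raw counts of reads per gene that the authors made with FastQC, TopHat2 2.1.1 and HTSeq, per the submitters' processing notes. The genome build, annotation, strand setting and filters behind the counts are not given in the sources used here. Of 7017 gene names 6843 matched RefSeq ASM294v3 and 174 did not, and the count table itself has no coordinates. Of the 10 columns, all but that of untreated HA were joined to their samples by name. The column of untreated HA was taken by its position. Values of 1 cell separation gene are not reported here.

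Counts were scaled with TMM factors over the 10 libraries (edgeR 4.0.16, R 4.3.3). Log2 ratios of treated over untreated HA used a prior count of 2, and genes with a mean under 10 CPM over the 10 libraries were left out. The exact (Clopper-Pearson) 95% interval of each ratio came from the counts of both libraries (scipy 1.17.1, Python 3.11.15), and the difference between HA and STY has a normal 95% interval on the log scale. With 1 library a side there is no p-value for these ratios.

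The single test was edgeR's quasi-likelihood test over all 10 libraries after filterByExpr, with terms for strain, for treatment and for treatment in HA, Benjamini-Hochberg adjustment and an adjusted p of 0.05. It has 3 residual degrees of freedom and assumes that the lone HA response varies like those of the other 4 strains. DESeq2 1.42.0 was the alternative. The edgeR test was also run on simulated counts with known changes in treated HA. Those counts had the same spread for every gene and no other difference between strains. That run therefore does not show how the test performs on these data, where the strains differ in their responses.

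Genes named were taken from the 12 highest and 12 lowest protein-coding ratios, the 4 highest and 2 lowest members of each of 24 lists with some defining members, the 8 largest and 8 smallest differences from STY and up to 5 noncoding genes at each end. Other members of a list that were apart, and the overlapping or paralogous partners of named genes, were named after their values were seen. The members and lists were chosen with earlier results of these data known. Motifs were searched in 5103 RefSeq windows of 250 bases before to 50 after a transcript start. Alternatives were total-count scaling, DESeq2 size factors, TMM factors from the 2 HA libraries, other CPM minimums, a prior count of 0.5, a 4-fold limit, a 1.5-fold limit in the comparison strain and leaving out noncoding genes or 1 strain. Figures were drawn with matplotlib 3.10.9.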

Additional observations from a re-analysis of the deposited data

How the results depend on the processing

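The 202 higher and 377 lower genes in treated HA became 85 and 174 with a minimum of 50 CPM, and 66 and 42 with a 4-fold limit. With no minimum 541 genes were higher, so that 56.5% of the genes apart were higher, and without noncoding genes 113 were. The HA minus STY counts fell to 78 higher and 18 lower with a minimum of 50 CPM, where fewer genes were counted. With a 1.5-fold limit in the comparison strain the share of higher and of lower HA genes found there was 56.9% and 78.5% in STY, 78.7% and 82.5% in 10M, 45.5% and 32.1% in 10D, and 51.5% and 36.3% in WT. With total-count scaling the higher share in WT was 32.9%, and the cause was not tested. The other counts over all genes stayed within 1.5 times of the values given. No named gene that was apart became apart in the opposite direction under the settings run. Ratios near 0 that were not apart, such as those of hsp90 (0.08) and bgs4 (0.00), can change sign with total counts, which lower the median by 0.15. Of the named genes, 8 gained a call, SPCC663.08c with the size factors of DESeq2 and the others with total counts. Besides wis2, aha1 and mas5, calls were lost for tps1, sib1 and osr1 with total counts, cmk2 and snoU14 with the size factors of DESeq2, and hpz2 both with these and with TMM factors from the 2 HA libraries. The test of HA against the other 4 strains called 0 genes in every leave-one-out fit without WT, STY, 10D or 10M, with 38 to 125 genes at an unadjusted p under 0.05, and 0 without a filter on low counts (66 unadjusted). No paired analysis was possible because each group has 1 library and no replicate number links samples, beyond the term for strain that the test already holds. Depth limits low genes most, such as SPAPJ695.02 with 4 counts in treated HA and 39 in untreated HA.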

Other observations

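Some genes were apart in HA and in none of the other 4 strains. They were picked out after their values were seen, and since they were selected for missing a limit elsewhere, their smaller ratios in the other strains are a description and not a test. Of the 202 genes higher in treated HA, 49 were such genes, 31 protein-coding and 18 noncoding, while 153 were higher in at least 1 other strain and 8 in all 4. Of the 377 lower genes 108 were such genes, all protein-coding, and 18 were lower in all 4 other strains. The 49 higher genes had a median log2 ratio of 1.38 in HA, against 0.49 in STY, 0.63 in 10M, −0.75 in 10D and −0.11 in WT. Of them 46 had the same sign in STY and 48 in 10M, against 9 in 10D and 20 in WT. The 108 lower genes had a median of −1.12 in HA, against −0.65 in STY, −0.72 in 10M, −0.13 in 10D and −0.09 in WT, with the same sign in 107, 107, 68 and 61 of them. In STY and 10M most of these genes thus had a ratio of the same sign as in HA that was not apart in that direction.

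Among the higher ones, gcd1 and the Hsp70 gene ssa1 described above were joined by mug106, at 25.8 CPM in treated and 5.42 CPM in untreated HA (log2 ratio 2.22, against 0.25 in STY). SPBC1683.04, annotated as a glycosyl hydrolase of family 3, was at 89.1 CPM in treated and 21.7 CPM in untreated HA. ncb2, annotated as a transcription corepressor, was at 330.0 CPM in treated and 88.6 CPM in untreated HA, with log2 ratios of 1.90 in HA and 0.93 in STY. Among the lower ones, cnd2, a condensin subunit that helps to compact mitotic chromosomes, was at 26.0 CPM in treated and 86.3 CPM in untreated HA. SPBC1683.12, annotated as a nicotinic acid transporter, was at 31.2 CPM in treated and 93.9 CPM in untreated HA, and SPCC320.05, a sulphate transporter, at 24.2 and 68.7 CPM. The log2 ratio of SPCC320.05 was −1.50 in HA but 1.53 in WT.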
